A study of Homo sapiens with 24 samples.

Results

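NRF2, encoded by NFE2L2, its inhibitor KEAP1 and 31 listed target genes were followed through RNA-seq counts of 2 lung cancer lines. The 33 genes were taken by name from a table of 59385 gene symbols, and all 33 had a row. Human NRF2 is a transcription factor that KEAP1 holds for ubiquitination and destruction. Oxidants and electrophiles modify KEAP1, NRF2 then accumulates, pairs with a small MAF protein and binds antioxidant response elements near its targets. The targets make glutathione and NADPH, reduce peroxides and carbonyls, export conjugates, and handle haem and iron. A549 is known to carry an inactivating KEAP1 mutation and is a common model of constant NRF2 activity.

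The cells were A549 and H1299, both established human lung carcinoma lines of the non-small cell type, kept in RPMI1640 with serum. Each line had been transduced with lentivirus for stable FLAG-tagged expression: an empty vector (Ctr), or SIRT6 in wild-type (WT), acetylation-deficient (K3R) or acetylation-mimetic (K3Q) form. SIRT6 is a sirtuin, an enzyme that uses NAD to remove acyl groups from histones and other proteins. The series set gene expression of the 4 constructs side by side in both lines. There were 8 groups of 3 libraries, 24 in all: a first biological replicate run in both batches (libraries 1-1 and 1-2, the last digit being the batch) and a second one run in batch 2 (2-2). Whether 1-1 and 1-2 came from one culture is not stated in the labels, so p-values measure the spread between these libraries, part of which may be technical. The labels do not say whether each transduced line was a clone or a pool.

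Library totals ran from 16434492 to 19412274 counts in A549 and from 14943189 to 22856407 in H1299. Levels are given as CPM, the count of a gene scaled to the library total. SIRT6 checked the labels of the Ctr libraries against the rest. Its mean was 26.7 CPM in A549 Ctr and between 1548 and 2289 CPM with the 3 SIRT6 constructs. In H1299 the SIRT6 means were 40.6 CPM for Ctr, 4056 for WT, 4295 for K3R and 13122 for K3Q, so K3Q carried more SIRT6 RNA than WT there. Introduced and native SIRT6 reads were not separated. Counts per gene cannot tell the WT, K3R and K3Q sequences apart, so those labels were not checked. The summed level of 5 epithelial markers was 4720 to 11494 CPM in A549 and 664 to 1143 CPM in H1299, where EPCAM, CDH1 and KRT19 were near 0. The 4 lung lineage markers NKX2-1, FOXA1, FOXA2 and SFTPC summed to 59.7 to 103 CPM in A549 and 2.36 to 3.79 CPM in H1299. Of these, SFTPC and NKX2-1 were near 0 in both lines. A set of 7 markers of blood, vessel and stromal cells summed to at most 1.90 CPM. A549 K3Q libraries 1-2 and 2-2 were nearly identical: a chi-square comparison of their counts gave 2.60 per degree of freedom, where every other pair of libraries within a group gave 16.1 to 71.5. In every other group library 2-2 was farther by that measure from both other libraries than these were from each other.

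The first comparison set A549 against H1299 with the empty vector. The genes were listed with earlier results of these data known, so their counts beside all genes are descriptive and not an independent test. Libraries replicate a line, and the KEAP1 mutation of A549 cannot be told apart from other differences between the lines. Of 33 NRF2 genes, 31 were higher in A549 and 0 were lower at an adjusted p under 0.05 (edgeR quasi-likelihood test, Benjamini-Hochberg over 18102 genes). Across all genes tested, 32.5% were called higher in A549 and 65.3% were called in either direction. The median log2 difference was 2.90 over the 33 genes and -0.03 over all genes. The 2 genes that did not pass were NFE2L2 and KEAP1 themselves. The same number, 31 of 33, was called higher in A549 with WT, with K3R and with K3Q, where 32.3%, 33% and 32.4% of all genes were. In 28 of the 33 genes every one of the 12 A549 libraries lay above every one of the 12 H1299 libraries, an order found in 17.7% of all genes tested. NFE2L2, KEAP1, PRDX1, HMOX1 and OSGIN1 overlapped between the lines.

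**Figure D1:**
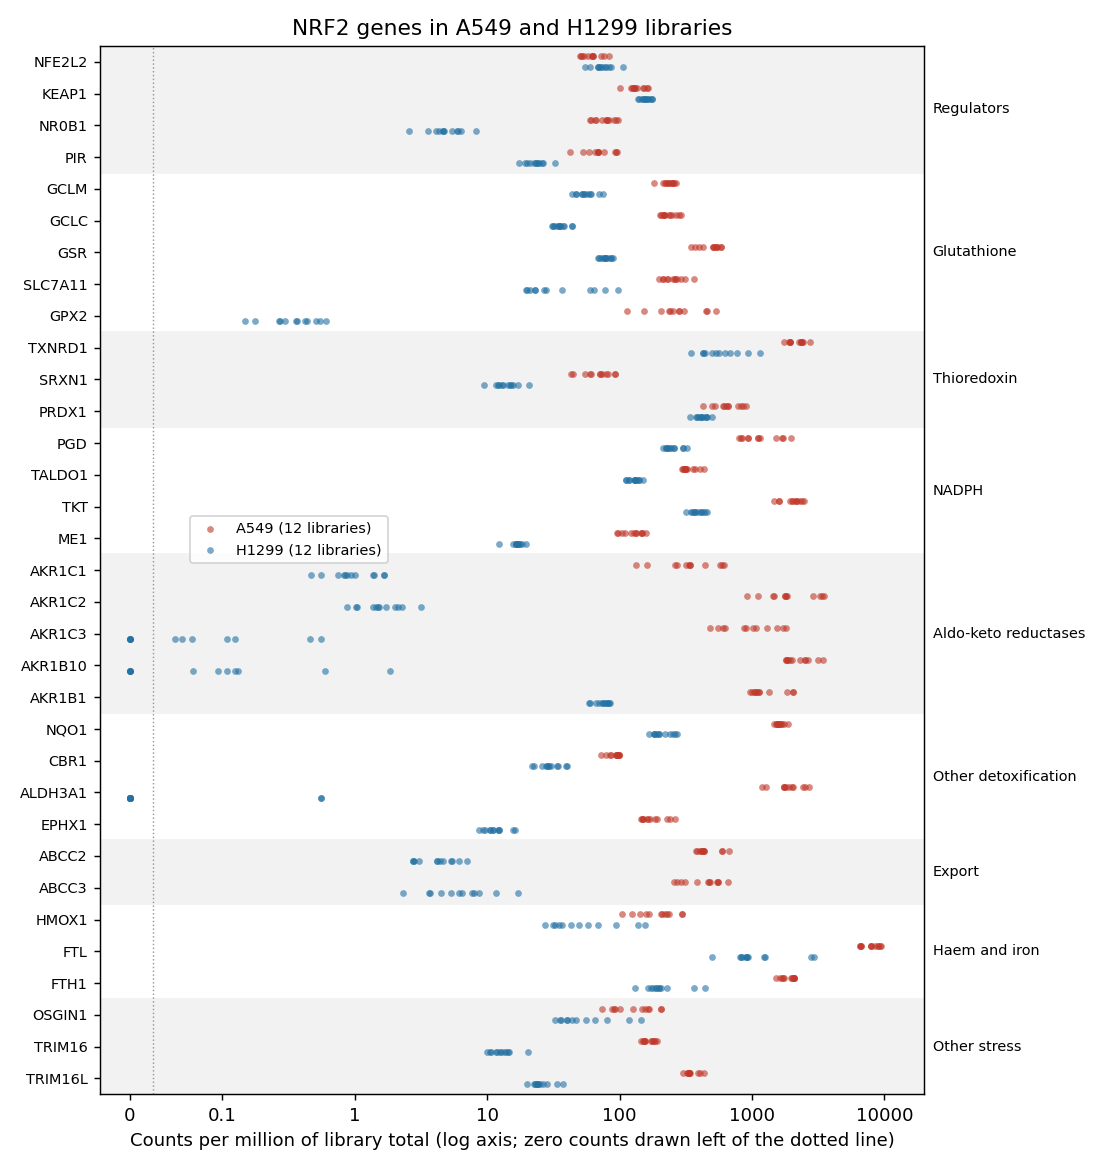
Level of each NRF2 gene in CPM (log axis) in the 12 A549 libraries (red) and the 12 H1299 libraries (blue), 1 point per library, with genes grouped by role and zero counts drawn left of the dotted line. The point clouds are apart for 28 genes, all with A549 above, and overlap for NFE2L2, KEAP1, PRDX1, HMOX1 and OSGIN1.

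Among the regulators, the ranges of NFE2L2 overlapped between the lines. In A549 Ctr it was counted at 62.5, 51.0 and 83.4 CPM in libraries 1-1, 1-2 and 2-2, and in H1299 Ctr at 70.4, 86.7 and 107 CPM. The log2 difference of A549 from H1299 was -0.25 ± 0.14 (SE, adjusted p = 0.134). KEAP1, the adaptor that presents NRF2 to the CUL3 ubiquitin ligase, was at 121, 123.3 and 100.5 CPM in A549 Ctr and at 155, 151 and 152 CPM in H1299 Ctr. Its log2 difference was -0.23 ± 0.12 (SE, adjusted p = 0.103). With the library number as a block in the model, NFE2L2 (-0.26, adjusted p = 0.0224) and KEAP1 (-0.24, adjusted p = 0.0327) also passed, both lower in A549, where that model called 70.5% of all genes. With WT, K3R and K3Q the differences of both genes lay between -0.20 and 0.15 and did not pass. RNA level says nothing of the KEAP1 protein's sequence or of NRF2 protein. NR0B1, a nuclear receptor that acts as a corepressor, was higher in A549 by 3.64 ± 0.22 on the log2 scale. PIR, an iron-binding nuclear protein, was higher by 1.75 ± 0.17.

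All 5 glutathione genes were higher in A549. GCLC and GCLM are the catalytic and modifier subunits of the ligase that makes the first step of glutathione synthesis. GCLC was at 216, 220 and 211 CPM in A549 Ctr and at 37.2, 38.3 and 43.4 CPM in H1299 Ctr, a log2 difference of 2.62 ± 0.13. The cystine importer SLC7A11 (2.68 ± 0.55) spread more, at 27.8, 21.1 and 97.2 CPM in H1299 Ctr, the high value being library 2-2. GPX2, a glutathione peroxidase of epithelia, was at 449, 153 and 114 CPM in A549 Ctr. In H1299 Ctr it had 19 counts in 3 libraries, 0.345 CPM. Summed counts put GPX2 716-fold higher in A549, with a 95% exact Poisson interval of 458 to 1189 that covers counting error only. Library 1-1 was the highest of A549 Ctr, and without it the ratio was 388 (248 to 644).

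All 3 thioredoxin genes and all 4 NADPH genes were higher in A549. TXNRD1, the cytosolic thioredoxin reductase, was at 1736, 1909 and 2720 CPM in A549 Ctr and at 438, 426 and 625 CPM in H1299 Ctr, a log2 difference of 2.24 ± 0.21. PRDX1, an abundant peroxiredoxin, showed the smallest called difference, 0.79 ± 0.14. NADPH is supplied by PGD, TALDO1 and TKT of the pentose phosphate pathway and by malic enzyme ME1. Their log2 differences were 2.51 for PGD, 1.64 for TALDO1, 2.67 for TKT and 2.90 for ME1.

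All 5 aldo-keto reductases, which reduce carbonyls and steroids, were higher in A549. AKR1B10 was at 3444, 1812 and 1863 CPM in A549 Ctr and at 0.597, 0 and 0 CPM in H1299 Ctr. AKR1C3 was at 1799, 626 and 485 CPM in A549 Ctr and at 0.460, 0 and 0.0595 CPM in H1299 Ctr. In these 2 genes and in ALDH3A1, an aldehyde dehydrogenase, nearly all H1299 Ctr counts came from library 1-1. Summed counts with 95% Poisson intervals gave A549 to H1299 ratios of 10232 (5984 to 19217) for AKR1B10, 5017 (2804 to 10050) for AKR1C3 and 9034 (5172 to 17483) for ALDH3A1. Without A549 Ctr 1-1 the ratio of AKR1C3 was 2785 (1557 to 5579). Without H1299 Ctr 1-1 AKR1C3 had 1 count left in H1299, a ratio of 33408 (5996 to 1319500). There AKR1B10 and ALDH3A1 had 0 counts left. Against a floor of 3 counts over the group they were 26840-fold and 21874-fold higher in A549. Their lower 95% Poisson limits were 21828 and 17789. With K3R and with K3Q the H1299 libraries held 0 counts of ALDH3A1. Against the same floor, ALDH3A1 was 39214-fold (K3R) and 34650-fold (K3Q) higher in A549 there, with lower 95% Poisson limits of 31891 and 28179.

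Low counts of these genes in H1299 came mostly from 2 libraries, Ctr 1-1 and WT 1-1. AKR1B10 was at 1.85 CPM in WT 1-1 and at 0.131 CPM or less in the 10 H1299 libraries other than these. ALDH1A1, a detoxifying aldehyde dehydrogenase at 3457 to 7906 CPM in the A549 libraries, was at 1.103 and 2.964 CPM in H1299 Ctr 1-1 and WT 1-1 and at 0.0541 CPM or less in the other H1299 libraries. KRT19 was at 0.414 and 0.232 CPM in the same 2 libraries and at 0.0604 CPM or less in the others. The part of A549 RNA in these low counts was not tested. Leaving out both libraries, 30 of the 33 genes were called with Ctr and 30 with WT, and the share of all genes in that fit is not given.

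AKR1C1 and AKR1C2, neighbours on chromosome 10, were at 596, 133 and 161 CPM and at 3256, 1114 and 913 CPM in A549 Ctr. In H1299 Ctr they were at 0.827, 0.845 and 1.67 CPM and at 2.02, 1.03 and 2.26 CPM. Log2 differences were 7.97 ± 0.34 and 9.94 ± 0.32. Of the 50-base stretches of AKR1C1 transcripts 28.6% also occur in another gene, mainly AKR1C2, and the split of reads between the 2 is uncertain. TRIM16 (3.79) and TRIM16L (4.02) share 46.6% and 43.3% of theirs with other genes, mainly each other. SRXN1 shares 84.8% with AL121758.1 and FTH1 57.4% with other genes, mainly BEST1. FTL shares 18.3% with the pseudogene FTLP3 and PRDX1 21.0%, mainly with MMACHC. MMACHC and BEST1 overlap PRDX1 and FTH1 on the opposite strand, and AL121758.1 overlaps SRXN1 on the same strand. Over all libraries MMACHC had 5388 counts against 234472 of PRDX1, and BEST1 had 151 against 443159 of FTH1. How shared reads were assigned is not known.

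Export pumps and haem and iron genes were all higher in A549. ABCC2 and ABCC3, which pump glutathione and glucuronide conjugates out of the cell, differed by 7.20 ± 0.24 and 7.07 ± 0.41 on the log2 scale. FTL and FTH1, the ferritin light and heavy chains that store iron, differed by 3.46 ± 0.43 and 3.55 ± 0.30. HMOX1, haem oxygenase 1, was at 124, 105 and 238 CPM in A549 Ctr and at 68.5, 27.2 and 57.8 CPM in H1299 Ctr. Its log2 difference of 1.67 ± 0.60 had the highest adjusted p of the 31 (adjusted p = 0.0233), and A549 and H1299 libraries with SIRT6 overlapped. With single libraries left out, its adjusted p reached 0.103, and the calls of HMOX1 and ALDH3A1 did not hold in every fit. NQO1, a quinone reductase widely used as a readout of NRF2, was at 1872, 1460 and 1536 CPM against 182, 182 and 240 CPM, a log2 difference of 3.18 ± 0.15.

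Per kilobase of exon, the order of the genes differed between lines. The length counts every annotated exon base of a gene once, over all its transcripts. It can exceed the length of the transcript expressed, and ranks within a line depend on it. In A549 Ctr FTL led at 8482 CPM per kilobase, ahead of AKR1B10 at 1360 and FTH1 at 899. By this length NFE2L2 was the lowest of the 33 genes there, at 10.97 CPM per kilobase. It held rank 13 in H1299 Ctr, at 14.7. In H1299 Ctr FTL also led, at 844 CPM per kilobase, followed by PRDX1 at 259 and FTH1 at 85.8. AKR1B10 fell at rank 31 of 33 there, and KEAP1, at 40.6 CPM per kilobase, held rank 8 against rank 25 in A549.

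Proximal promoter sequences show how far the letters of an antioxidant response element are found near the starts of these genes. RefSeq promoters on GRCh38.p14, from 250 bases before to 50 after each start, matched 24 of the 33 genes with 31 starts. The core TGACNNNGC, searched on both strands, was in 10 of 31 (32.3%), against 13.3% of 35116 promoters of all genes. The variant TGAGNNNGC was in 9 of 31 (29%), against 18.3%. The AP-1 motif TGACTCA, which overlaps the core in ME1 and PIR and the variant in OSGIN1, was in 3 of 31 (9.68%), against 4.95%. The following stretches, 1 for each of 9 genes whose levels are described here, are on the strand of the match, which is in capitals with 10 bases on either side. The match is the variant in OSGIN1, AKR1C1 and AKR1C2 and the core in the others. Some of these genes have further matches that are not shown.
GCLM, chr1:93909446-93909474, plus strand, overlapping an exon in GENCODE 29: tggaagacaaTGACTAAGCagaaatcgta
KEAP1, chr19:10502784-10502812, plus strand, overlapping an exon: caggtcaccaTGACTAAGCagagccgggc
GPX2, chr14:64942849-64942877, plus strand, overlapping an exon: atccccaggaTGACTTAGCaaaaacaggt
TXNRD1, chr12:104215670-104215698, plus strand, upstream of the gene model: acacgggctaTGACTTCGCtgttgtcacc
CBR1, chr21:36069855-36069883, minus strand, upstream of the gene model: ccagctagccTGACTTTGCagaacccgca
ME1, chr6:83431170-83431198, minus strand, upstream of the gene model: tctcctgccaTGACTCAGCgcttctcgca
OSGIN1, chr16:83953131-83953159, minus strand, in an intron of the gene model: ttcataagcgTGAGTCAGCaggggcccgt
AKR1C1, chr10:4963364-4963392, minus strand, overlapping an exon: ataagagcaaTGAGCTGGCaacgcccctg
AKR1C2, chr10:5003884-5003912, plus strand, overlapping an exon: ataagagcaaTGAGCTGGCaacgcccctg
GCLM and KEAP1 share all letters of the core, although GCLM was called higher in A549 and KEAP1 was not. The stretches of AKR1C1 and AKR1C2 are identical. A match is a description of letters and was not tested as a binding site.

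The second comparison asked whether SIRT6 constructs moved NRF2 genes in A549, where these genes were already high. With the construct and batch in the model, 0 of 33 passed for WT, K3R or K3Q against Ctr, where 0.0993%, 0.118% and 0.0248% of 16120 genes passed. At an unadjusted p under 0.05 there were 6, 8 and 15 of the 33, and DESeq2 called 1, 2 and 1. Here and below, the share of all genes is not given for unadjusted or DESeq2 counts. Such counts are not read as results about the NRF2 genes. Medians over the 33 genes were 0.09, 0.15 and 0.30 on the log2 scale, against 0.00 for all genes tested. Positive values were found in 24, 26 and 27 of 33, and in 24, 26 and 26 of 42 other pathway genes read below. The share of all genes above 0 is not given, and the counts of positive values are not read as a result. The 3 comparisons share the Ctr libraries.

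OSGIN1, an oxidative stress-induced growth inhibitor, had the lowest p with WT and K3R. It was at 73.1, 100.1 and 125 CPM in Ctr, at 87.3, 167 and 204 CPM in WT and at 91.5, 164 and 204 CPM in K3R (libraries 1-1, 1-2 and 2-2). At each library number WT and K3R lay above Ctr, while the groups overlapped because 1-1 was low in every group. Its log2 values were 0.60 ± 0.13 in WT (adjusted p = 0.136), 0.61 ± 0.13 in K3R (adjusted p = 0.139) and 0.45 ± 0.13 in K3Q (adjusted p = 0.334).

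SRXN1, sulfiredoxin, which repairs over-oxidised peroxiredoxins, was at 54.7, 44.8 and 43.0 CPM in Ctr and at 60.6, 91.6 and 70.5 CPM in WT. With K3R it was at 82.2, 92.8 and 60.0 CPM and with K3Q at 71.5, 78.5 and 74.0 CPM. No SIRT6 library overlapped Ctr, yet the log2 values of 0.67, 0.75 and 0.71 did not pass (adjusted p = 0.323, 0.255 and 0.319). NR0B1 was at 65.3, 59.6 and 60.7 CPM in Ctr and at 79.8, 93.2 and 96.8 CPM in K3Q, without overlap. Its K3Q value of 0.59 ± 0.12 had the lowest p of that comparison (adjusted p = 0.128).

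With the library number as a block, OSGIN1 passed for WT (adjusted p = 0.0307) and for K3R (adjusted p = 0.0317). NR0B1 (adjusted p = 0.0277) and SRXN1 (adjusted p = 0.0496) passed for K3Q. That model called 0.664%, 0.602% and 0.844% of all genes in the 3 comparisons. The number does not pair A549 K3Q 2-2 with the other 2-2 libraries, so these A549 counts carry that doubt.

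**Figure D2:**
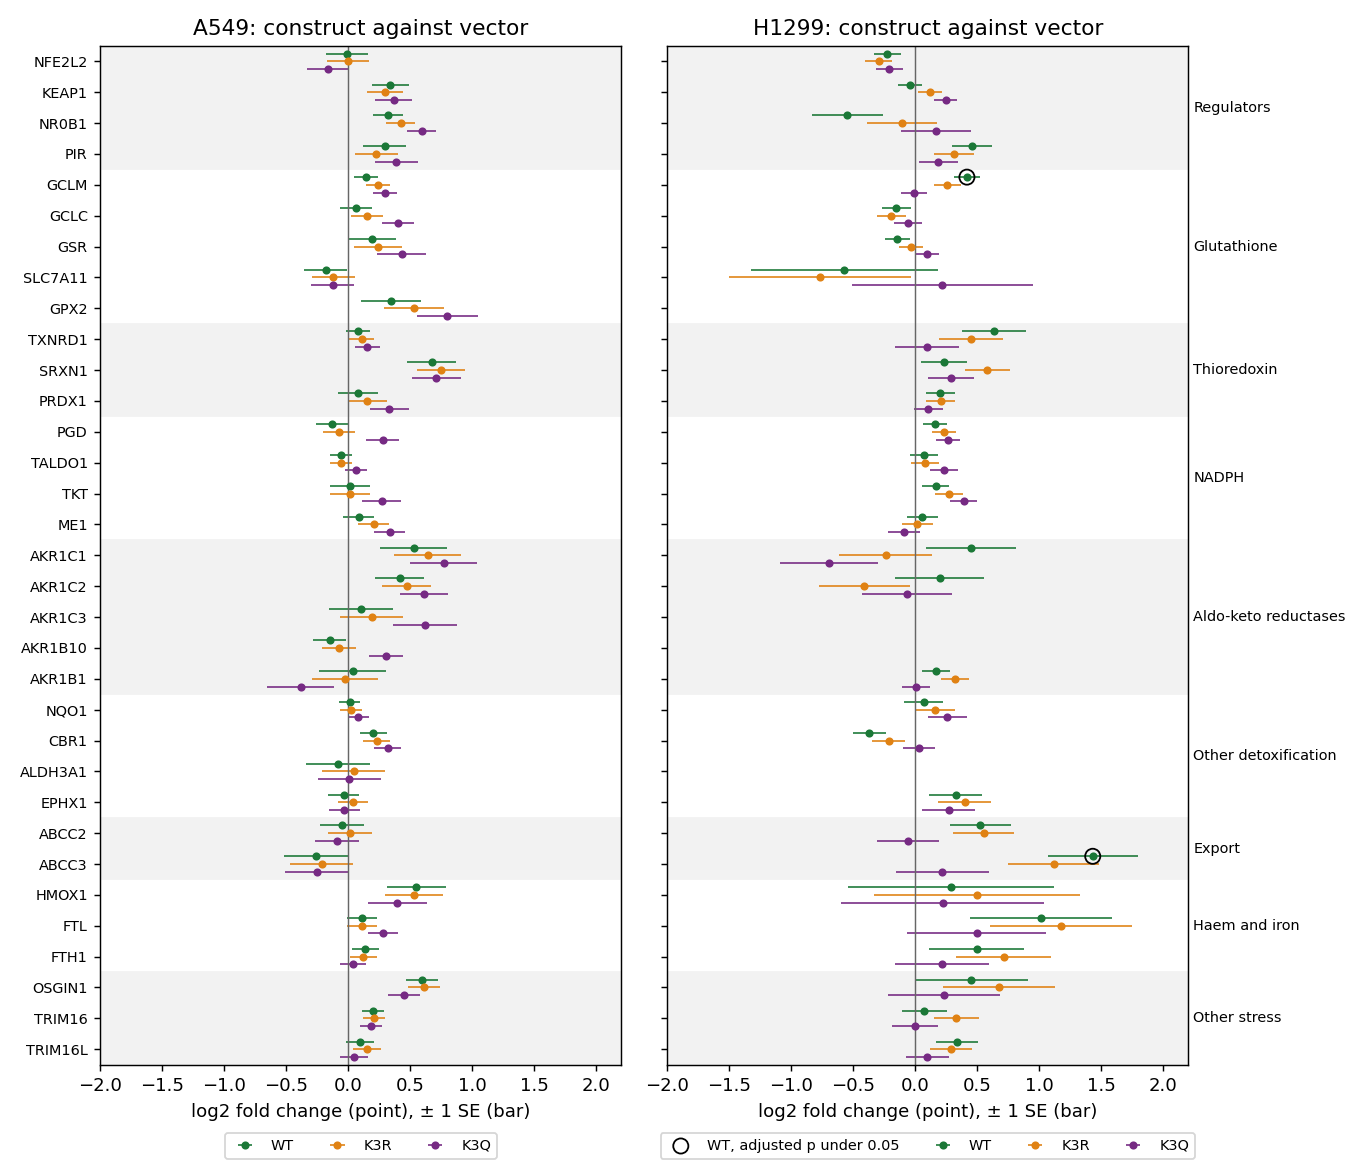
Log2 fold change of each NRF2 gene with WT (green), K3R (orange) and K3Q (purple) SIRT6 against the empty vector, in A549 (left) and H1299 (right); points are model estimates, bars ± 1 SE and open circles mark an adjusted p under 0.05. Circles stand only on GCLM and ABCC3 with WT in H1299, and 4 genes with too few counts have no points in H1299.

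Between the SIRT6 forms of A549, 0 of 33 passed for K3R against WT, K3Q against WT or K3Q against K3R, where 0%, 0.0062% and 0.0062% of all genes did. At an unadjusted p under 0.05 there were 0, 4 and 2, and DESeq2 called 0 in each. For K3R against WT the lowest p were those of GCLM (0.10, interval -0.09 to 0.29), ME1 (0.12, -0.12 to 0.36) and NR0B1 (0.10, -0.13 to 0.33), each as log2 with an approximate 95% interval. For K3Q against WT they were those of AKR1B10 (0.45, 0.19 to 0.72), PGD (0.41, 0.15 to 0.67) and GCLC (0.33, 0.08 to 0.59), with adjusted p of 0.559, 0.571 and 0.713. The same 3 genes led K3Q against K3R at 0.38, 0.35 and 0.25, with an adjusted p of 0.971 each. PGD was at 1984, 1114 and 1151 CPM in K3Q and at 1517, 940 and 801 CPM in WT.

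In A549 the libraries of one construct also differed from each other. Of the 33 genes 17 had all 4 libraries 1-1 above all 4 libraries 1-2, and OSGIN1 alone had them all below. Across 16120 genes 18.7% lay above and 13.6% below in that way. These 2 sets of libraries are of the same biological replicate and differ in batch. AKR1C1 was at 596, 442, 568 and 611 CPM in 1-1 of Ctr, WT, K3R and K3Q, and at 133, 338, 338 and 315 CPM in 1-2. The ratio of 1-1 to 1-2 was 1.31 to 4.47 for AKR1C1, 1.57 to 2.92 for AKR1C2, 1.197 to 2.93 for GPX2 and 1.55 to 1.80 for PGD. In Ctr the ratio of AKR1C1 was the highest of the 4 constructs, and Ctr lay below all SIRT6 groups in batch 2, but above WT and K3R and below K3Q in batch 1. Whether the batches differ in their response of this gene was not tested.

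**Figure D3:**
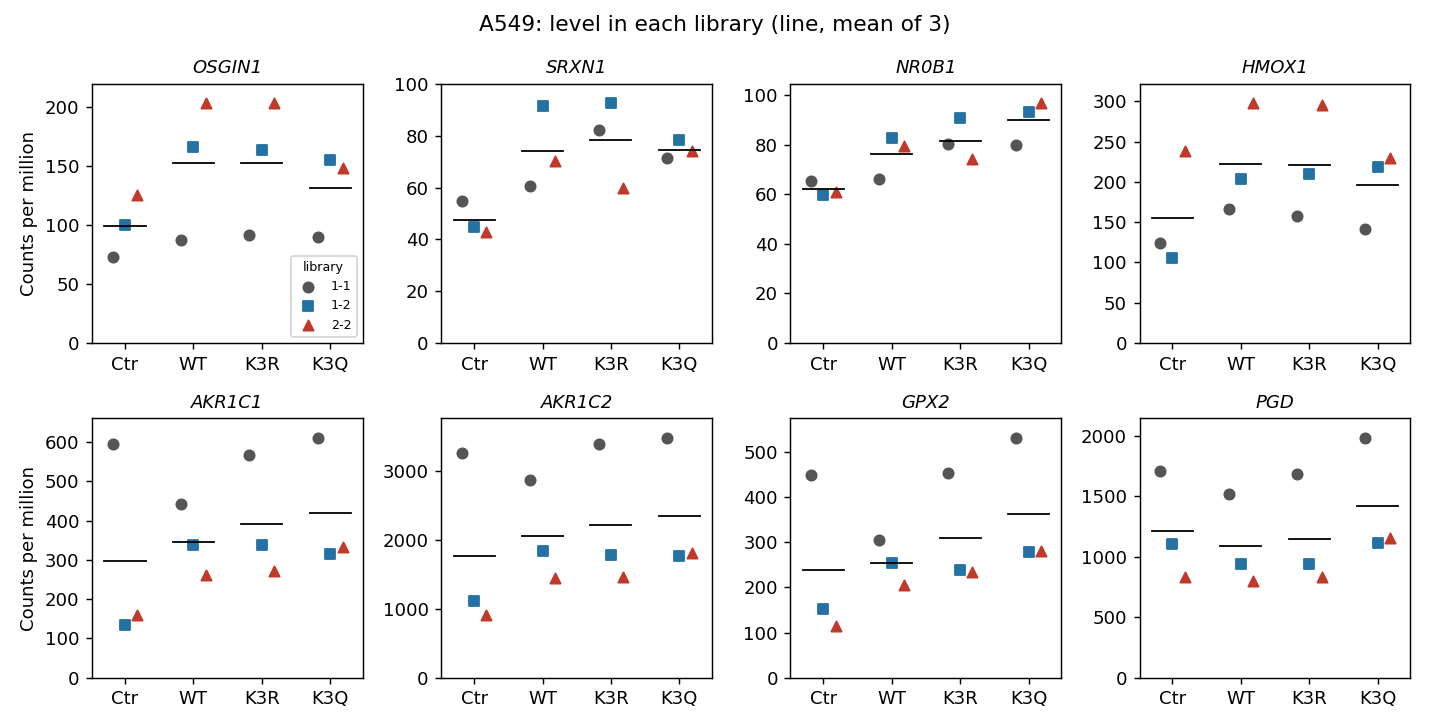
CPM of 8 NRF2 genes in each A549 library by construct; symbols mark libraries 1-1, 1-2 and 2-2, and lines the mean of 3. AKR1C1, AKR1C2, GPX2 and PGD are highest in library 1-1 of every construct, while OSGIN1 is lowest there.

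In H1299, 29 of the 33 genes had enough counts to be tested. GPX2, AKR1C3, AKR1B10 and ALDH3A1 did not. With WT SIRT6, 2 of 29 were higher than in Ctr, GCLM and ABCC3, and 0 were lower, where 3.97% of 16262 genes passed in either direction. GCLM was at 51.6, 54.0 and 46.7 CPM in Ctr and at 57.3, 70.5 and 74.5 CPM in WT, without overlap. Its log2 change was 0.42 ± 0.11 (SE, adjusted p = 0.0433). ABCC3 was at 3.63, 2.29 and 6.48 CPM in Ctr and at 8.66, 7.70 and 16.98 CPM in WT, again without overlap, a change of 1.43 ± 0.36 (adjusted p = 0.0470). Neither call held in every fit: without WT 2-2, GCLM had an adjusted p of 0.173 and ABCC3 of 0.183, and without both WT 2-2 and K3R 2-2, which were the highest of the 12 libraries for FTL, FTH1, HMOX1 and OSGIN1, 0 genes passed. When single libraries were left out, GCLM still passed only without Ctr 1-1, WT 1-1 or K3R 2-2, and ABCC3 only without Ctr 2-2, WT 1-2, K3R 1-2 or K3R 2-2.

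With K3R, 0 of 29 passed against Ctr, where 3.28% of all genes did, with 8 at an unadjusted p under 0.05 and 2 called by DESeq2. The lowest p were those of SRXN1 (0.58 ± 0.18, adjusted p = 0.106), ABCC3 (1.11 ± 0.36, adjusted p = 0.128) and AKR1B1, an aldose reductase (0.32 ± 0.11, adjusted p = 0.157). ABCC3 was at 8.01, 6.08 and 11.7 CPM in K3R. With K3Q, 0 of 29 passed against Ctr, where 0.0553% of all genes did, with 3 at an unadjusted p under 0.05 and 0 called by DESeq2. TKT (0.39 ± 0.11, adjusted p = 0.274), PGD (0.27 ± 0.10, adjusted p = 0.394) and KEAP1 (0.24 ± 0.10, adjusted p = 0.425) had the lowest p. Medians over the 29 genes were 0.20, 0.26 and 0.17 on the log2 scale for WT, K3R and K3Q, against -0.01 for all genes in each.

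In H1299 the library number moved with the level of many genes, and the model with it as a block called more. TXNRD1 was at 438, 426 and 625 CPM in Ctr, at 534, 683 and 1139 CPM in WT and at 500, 563 and 926 CPM in K3R. WT lay above Ctr at each number. In that model 4 of 29 genes passed for WT against Ctr. GCLM (0.42), TXNRD1 (0.62, adjusted p = 9.6e-04) and ABCC3 (1.44, adjusted p = 3.8e-04) were higher. CBR1, a carbonyl reductase, was lower (-0.37, adjusted p = 0.0255). For K3R against Ctr 2 passed, both higher: TXNRD1 (0.43, adjusted p = 0.012) and ABCC3 (1.15, adjusted p = 0.0027). Across all genes 9.9% and 8.68% passed in that model. Against these shares the counts of 4 and 2 are not read as results about the NRF2 genes.

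K3Q was set against WT to compare the acetylation mimic with the wild-type protein. GCLM alone of 29 passed, lower in K3Q by -0.43 ± 0.11 (adjusted p = 0.0436), where 3.5% of all genes passed. It was at 43.7, 46.7 and 51.5 CPM in K3Q, below every WT library and overlapping Ctr. When single libraries were left out it still passed only without Ctr 1-1, Ctr 2-2 or K3R 2-2, and the adjusted p was highest, 0.201, without K3Q 1-1. ABCC3, at 3.71, 4.48 and 5.31 CPM in K3Q, lay below every WT library at -1.21 ± 0.36 but did not pass (adjusted p = 0.0857). The model with the number as a block called 7 of 29, where 12% of all genes passed. GCLM (-0.43), TXNRD1 (-0.54), ABCC3 (-1.16) and AKR1C1 (-1.19) were lower in K3Q, and KEAP1 (0.29), CBR1 (0.41) and NR0B1 (0.70) were higher. Without all 2-2 libraries, a fit chosen after the data were seen, 12 of 32 genes passed, where 24.7% of all genes did. GCLM (-0.39), TXNRD1 (-0.54), ABCC3 (-0.90) and AKR1C1 (-1.47) were lower in K3Q. KEAP1 (0.40), CBR1 (0.38), TKT (0.39), TALDO1 (0.34), NQO1 (0.30) and GSR (0.25) were higher. AKR1B10 and ALDH3A1 were called lower too, but their WT counts there, 40 and 12, all came from library 1-1, and no fold is given. SIRT6 RNA was itself higher in K3Q than in WT by 1.78 ± 0.41 on the log2 scale (adjusted p = 0.0458), and the effect of the mutation and of the level cannot be told apart.

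K3R against WT called 0 of 29 genes, as it called 0% of all genes, with 0 of 29 at an unadjusted p under 0.05 and 0 by DESeq2. SRXN1 (0.35, interval -0.01 to 0.71), AKR1C1 (-0.69, -1.41 to 0.03) and KEAP1 (0.16, -0.02 to 0.35) had the lowest p, as log2 with approximate 95% intervals. K3Q against K3R called 0 of 29, where 0.51% of all genes passed, with 4 at an unadjusted p under 0.05 and 0 by DESeq2. AKR1B1 (-0.31, adjusted p = 0.276), GCLM (-0.27, adjusted p = 0.326) and ABCC2 (-0.61, adjusted p = 0.331) had the lowest p. With the block ABCC3 passed, lower in K3Q by -0.87 (adjusted p = 0.0294), where 3.25% of all genes did.

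**Figure D4:**
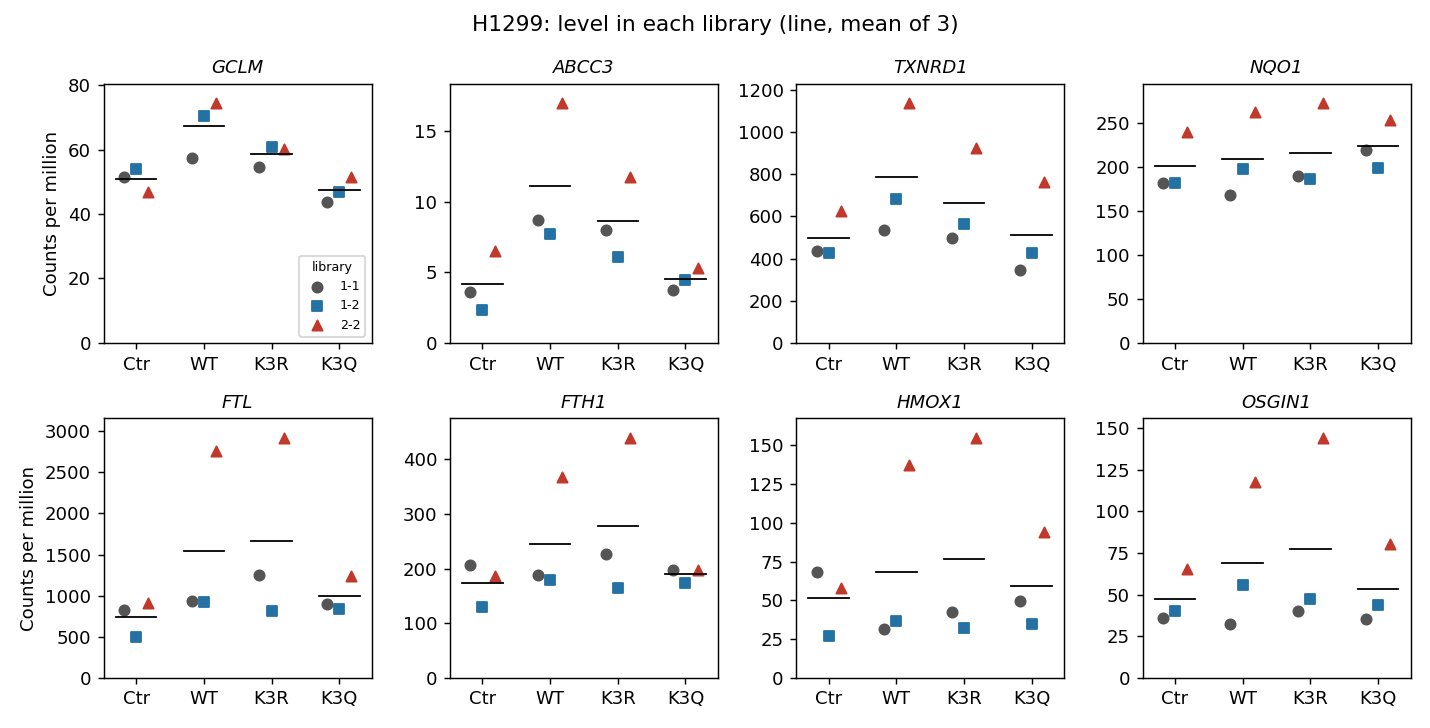
CPM of 8 NRF2 genes in each H1299 library by construct; symbols mark libraries 1-1, 1-2 and 2-2, and lines the mean of 3. GCLM and ABCC3 are higher in WT than in Ctr and K3Q, and library 2-2 is the highest of its construct for TXNRD1, NQO1, FTL and OSGIN1, with WT 2-2 and K3R 2-2 highest for FTL, FTH1, HMOX1 and OSGIN1.

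Whether SIRT6 moved the genes differently in the 2 lines was tested as an interaction over all 24 libraries. None of the 33 passed for WT, K3R or K3Q against Ctr, where 0.729%, 0.481% and 0.0166% of all genes did. At an unadjusted p under 0.05 there were 5, 4 and 5, and DESeq2 called 1, 0 and 0. ABCC3 had the lowest p for WT, with a change in A549 minus that in H1299 of -1.69 ± 0.48 on the log2 scale (adjusted p = 0.143), followed by CBR1 (0.57) and NR0B1 (0.87). For K3R they were ABCC3 (-1.33), CBR1 (0.44) and ALDH3A1 (4.90), the last with counts in H1299 Ctr 1-1 alone among those 2 groups. For K3Q they were AKR1C1 (1.45), GCLC (0.46) and ME1 (0.42), with adjusted p of 0.682, 0.682 and 0.691. With the block 4 genes passed for WT, where 2.33% of all genes did: ABCC3 (-1.72), TXNRD1 (-0.54), CBR1 (0.57) and NR0B1 (0.88). ABCC3 passed for K3R (-1.38), where 1.61% did.

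The last comparison set biological replicate 2 against 1 within batch 2, with all 4 constructs together. In H1299 8 of 29 genes were higher in 2-2 and 0 were lower, where 8.53% of all genes were called higher and 16.3% in either direction. Among the 8 called, HMOX1 had the widest change at 1.70 ± 0.39 on the log2 scale, followed by FTL (1.204 ± 0.27) and OSGIN1 (1.04 ± 0.16). FTL was at 496, 920, 807 and 842 CPM in 1-2 of Ctr, WT, K3R and K3Q and at 907, 2764, 2925 and 1236 CPM in 2-2. HMOX1 was at 27.2, 36.8, 32.3 and 34.6 CPM in 1-2 and at 57.8, 138, 155 and 94.3 CPM in 2-2. TXNRD1 (0.67), NR0B1 (0.68), ABCC2 (0.51), ABCC3 (0.91) and NQO1 (0.39) completed the 8. GCLM, called with WT SIRT6, was at -0.04 here (approximate 95% interval -0.21 to 0.13) and did not pass. Without WT 2-2 and K3R 2-2, 7 genes passed: TXNRD1 (0.60), OSGIN1 (0.65), FTL (0.62), ABCC3 (0.81), NR0B1 (0.69), NQO1 (0.27) and AKR1C2 (1.077). The count was 4 without WT 1-2 or without K3R 1-2, and 5 without Ctr 1-2 or without K3R 2-2. For these fits with libraries left out, the share of all genes called is not given.

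In A549 the same contrast called 7 of 33 genes in mixed directions, 4 higher and 3 lower in 2-2. Across all genes 13.6% were called, 7.75% higher and 5.82% lower. NFE2L2 (0.37), HMOX1 (0.51), ABCC2 (0.39) and AKR1B1 (0.59) were higher, and PIR (-0.36), TKT (-0.32) and PRDX1 (-0.32) were lower. AKR1B1 was at 1052, 1120, 1078 and 1083 CPM in 1-2 of Ctr, WT, K3R and K3Q and at 1824, 2024, 2048 and 1040 CPM in 2-2. K3Q 2-2 did not follow the other 2-2 libraries, and it nearly equals K3Q 1-2. Without the K3Q libraries 20 of 33 passed, where 38.2% of all genes did. The count was 0 without Ctr 1-2, without Ctr 2-2 or without any one library of WT or K3R, 11 without K3Q 1-1 and 21 without K3Q 2-2. The share of all genes called without single libraries is not given.

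**Figure D5:**
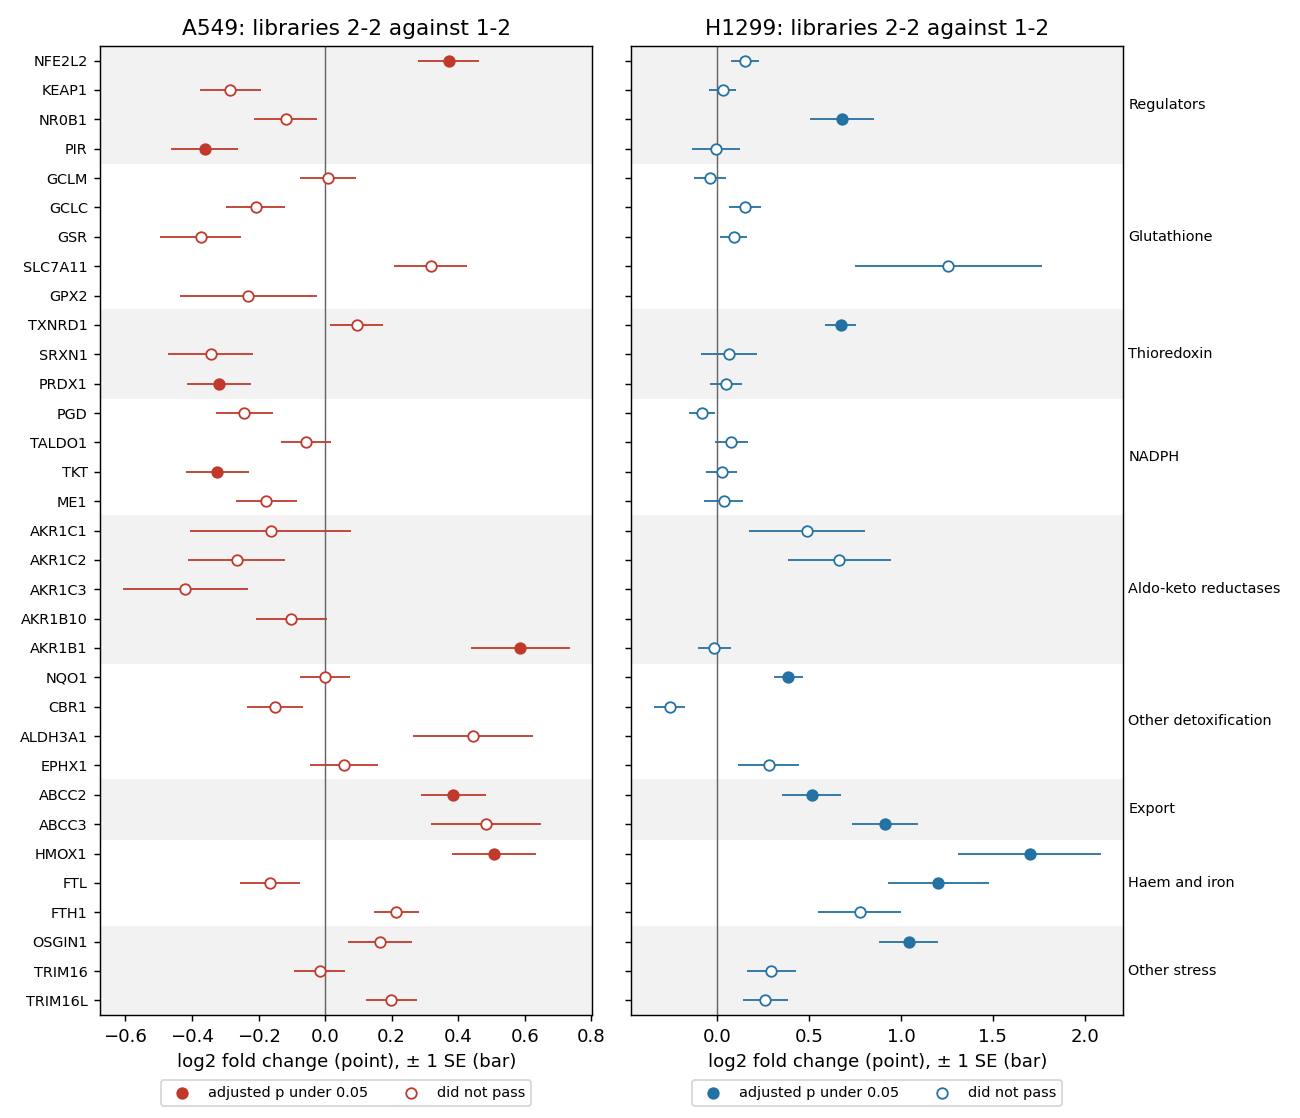
Log2 fold change of each NRF2 gene in libraries 2-2 against 1-2 over 4 constructs, in A549 (left) and H1299 (right); points are model estimates, bars ± 1 SE, and filled points have an adjusted p under 0.05. The 8 filled points of H1299 all lie above 0, and the 7 of A549 lie on both sides.

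HMOX1 and ABCC2 were called higher in 2-2 of both lines, but these calls were lost when some libraries were left out. In H1299 the adjusted p rose to 0.0952 for HMOX1 and 0.0887 for ABCC2 without K3Q, and to 0.214 and 0.0701 without WT 2-2 and K3R 2-2. Without single libraries it reached 0.113 (K3R 1-2, HMOX1) and 0.135 (Ctr 1-2, ABCC2) in H1299, and 0.147 for both genes in A549 (WT 2-2). Between libraries 1-1 and 1-2 of H1299, 4 of 29 genes did not overlap, all with 1-1 above: SLC7A11, PGD, EPHX1 and FTH1. All genes gave 6.46% above and 4.48% below. These 4 were also above in A549.

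A further 43 genes of the pathway, listed with earlier results of these data known, were read in the same fits. They cover partners and repressors of NRF2, the ligase that destroys it, and more enzymes of glutathione, NADPH, haem and aldehyde metabolism. Between A549 and H1299 with Ctr, 42 were tested, 28 were higher and 8 lower in A549. Of all genes 32.5% were called higher and 65.3% in either direction. The widest rises were ALDH1A1 (16.49), CYP4F11 (11.08), GPX1 (7.25) and UGT1A6 (6.63), on the log2 scale of the model, which for genes near 0 in H1299 depends on the prior count. The widest falls were BACH2 (-2.93), NFE2L3 (-1.41), BACH1 (-1.02) and MAFF (-0.93). BACH1 and BACH2 are repressors that compete with NRF2 for its sites, and NFE2L3 is a relative of NRF2.

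In A549 0 of 42 such genes passed in any of the 6 construct comparisons, with 0 to 9 at an unadjusted p under 0.05, where at most 0.118% of all genes passed. In H1299 4 of 38 passed for WT against Ctr, where 3.97% of all genes did. GLRX (0.70) and CBR3 (1.16) were higher, and BACH2 (-1.68) and GPX1 (-3.27) were lower. For K3R against Ctr 3 of 38 passed, where 3.28% of all genes did. BACH2 (-2.11), GPX1 (-3.08) and GSTM3 (-0.65) were lower. GPX1 rested on H1299 Ctr 1-1 at 7.77 CPM, against 0.181 and 0.595 CPM in Ctr 1-2 and 2-2, and without Ctr 1-1 it did not pass for WT or K3R. Against WT, K3Q was lower in GLRX (-0.70) and higher in GPX1 (2.98), 2 of 38 where 3.5% of all genes passed. Fits with single libraries left out are not given for this GPX1 call or for the construct calls of GLRX, CBR3, BACH2 and GSTM3. For K3Q against Ctr 0 of 38 passed, with 7 at an unadjusted p under 0.05.

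Between biological replicates, 9 of 38 passed in H1299, 7 higher and 2 lower in 2-2, where 16.3% of all genes passed and 8.53% were higher. SQSTM1, a selective autophagy receptor that binds KEAP1, was at 492, 535, 539 and 639 CPM in 1-2 of Ctr, WT, K3R and K3Q and at 1288, 1618, 1897 and 1321 CPM in 2-2, a log2 difference of 1.43 ± 0.15. The small MAF partners MAFG (0.52), MAFK (0.34) and MAFF (0.58), the biliverdin reductase BLVRB (0.69), the haem transporter SLC48A1 (0.37) and GPX3 (0.55) were also higher. RBX1 (-0.35) and UGDH (-0.26) were lower. In A549 10 of 42 passed, 7 higher and 3 lower, where 13.6% of all genes passed, 7.75% higher and 5.82% lower. MAFF (1.11), MAFK (0.53), MAFG (0.39), SLC48A1 (0.60), BACH1 (0.41), SLC3A2 (0.41) and SQSTM1 (0.35) were higher, and ABCG2 (-0.72), GSTA4 (-0.43) and RBX1 (-0.42) were lower.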

How the data were processed

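The authors deposited 1 table of raw read counts per gene symbol for 24 libraries, made from polyadenylated RNA with a SMARTer kit per the labels' protocols. FastQC, cutadapt, STAR, featureCounts and GRCh38 are named per the submitters' processing notes. For the versions, annotation release and strand setting, nothing was given in the sources used here, so reads of overlapping genes on opposite strands may not be separated.

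From these counts, edgeR 4.0.16 in R 4.3.3 fitted quasi-likelihood models with filterByExpr, TMM scaling and Benjamini-Hochberg adjustment over all genes tested; a call is an adjusted p under 0.05. Constructs were compared within a line with batch as a term (16120 genes in A549, 16262 in H1299), and lines and interactions over 24 libraries with batch within line (18102 genes). Replicates were compared with construct and library number as terms. Standard errors are the log2 fold change over the root of F. The approximate 95% intervals of log2 values use a normal quantile and are narrower than the test implies. Such an interval can leave out 0 where the unadjusted p is over 0.05. Every gene of the list could be named: all that passed up to 10, otherwise those with the 3 widest changes by role, and the 3 with the lowest p where 0 passed. The members and lists were chosen with earlier results of these data known.

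The library number marks replicate and batch per the labels. Correlations of same-numbered deviations were 0.134 to 0.549 in H1299 and 0.379 to 0.749 in A549 without K3Q, with a lowest value of 0.0569 for A549 K3Q 2-2. On simulated data the tests called 21% of 1.5-fold and 79% of 3-fold changes for A549 WT against Ctr (16120 genes), 28% and 81% for H1299 WT against Ctr (16262 genes), and 3% and 54% for the WT interaction (18102 genes). The changed genes were drawn from all genes tested, at any level, and no batch effect was simulated. These shares therefore do not describe the NRF2 genes alone. Gene lengths came from GENCODE 29, as the union of all annotated exons of a gene. Alternatives were DESeq2 1.42.0, RLE scaling, all genes without the count filter, other batch terms, the number as a block, summed or omitted libraries. Some genes are not reported here.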

Additional observations from a re-analysis of the deposited data

Results flagged for a closer look

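Outside the 33 genes, 3 genes of the wider pathway list differed between A549 and H1299 in their response to SIRT6, in 4 interaction tests (edgeR, Benjamini-Hochberg over 18102 genes).

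GPX1 had a change in A549 minus that in H1299, the interaction, of 3.28 on the log2 scale with WT (adjusted p = 0.0041) and 3.34 with K3R (adjusted p = 0.0050). Without H1299 Ctr 1-1 the values were 1.70 and 1.78 and neither passed. The K3R value was 1.31 without H1299 K3R 1-1, and the WT value was 3.24 without H1299 WT 1-1, neither past the threshold.

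BACH2 had an interaction of 2.43 with WT (adjusted p = 0.0369), which ranged from 2.06 to 3.04 with adjusted p up to 0.189 when single libraries were left out. The lowest was without H1299 Ctr 1-2. ALDH1A1 had a fitted interaction of 5.59 with K3R (adjusted p = 0.0368). Its 24 counts in H1299 Ctr all came from library 1-1, H1299 K3R had 0, and without Ctr 1-1 the adjusted p was 1, so the fitted value is no bound.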

How the results depend on the processing

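Between A549 and H1299, 29 to 31 of the 33 genes were called when single libraries were left out (30 to 31 with Ctr and with K3Q), and 28 to 33 under all alternatives run. Values of NFE2L2 and KEAP1 that turned in sign were near 0 and none passed. NFE2L2 with WT was 0.0033 with libraries 1-1 and 1-2 summed, and -0.18 to 0.081 with single libraries left out (above 0 at 0.081 without A549 WT 1-2 and 0.030 without H1299 WT 1-1). With K3R it was -0.060 in batch 2 alone, and -0.065 to 0.093 with single libraries left out (below 0 without A549 K3R 2-2 and, at -0.032, without H1299 K3R 1-1). KEAP1 with K3R was 0.030 without all 2-2 libraries, and -0.18 to 0.013 with single libraries left out (above 0 without A549 K3R 2-2). With K3Q it was 0.040 in batch 2 alone.

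The counts in this section stand without the share of all genes called in the same fit, unless that share is printed above. They are not read as results about the NRF2 genes. Without the low-count filter, counts of called genes were 5, 6 and 9 for WT, K3R and K3Q against Ctr in A549, 5 for K3Q against WT, 1 for K3Q against K3R, and 16 between replicates. In H1299 they were 6, 8 and 1 against Ctr, 5 each for K3Q against WT, K3Q against K3R and between replicates, and for the interactions 5, 4 and 2. DESeq2 called 1, 2 and 1 against Ctr in A549 and 14 between replicates, 2 for K3R against Ctr and 2 for K3Q against WT in H1299, and 1 for the WT interaction. With the library number as a block, 1, 1 and 2 passed against Ctr in A549. In H1299 the block gave 4 for WT and 2 for K3R against Ctr, 7 for K3Q against WT, 1 for K3Q against K3R, and in the interactions 4 with WT and 1 with K3R. It changed no other construct or interaction count by over 1.5 times.

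Without all 2-2 libraries, an alternative chosen after seeing the data, 1, 2 and 3 passed against Ctr and 1 for K3Q against WT in A549. In H1299 that gave 5 each for K3R and K3Q against Ctr, 12 for K3Q against WT, 4 for K3Q against K3R, and in the interactions 5, 3 and 2. For H1299 WT against Ctr and K3Q against WT the count was 0 without a batch term, in batch 2 alone, with libraries 1-1 and 1-2 summed, and without WT 2-2 and K3R 2-2 (the last also chosen after seeing the data). All 24 libraries in one fit gave 2 for H1299 K3Q against WT, and without K3Q the A549 replicate comparison gave 20. The causes were not tested. With single libraries left out the counts were 0 in every A549 construct comparison and interaction, 0 to 2 for H1299 WT against Ctr, 0 to 1 for H1299 K3Q against WT, 0 to 21 between A549 replicates and 4 to 11 between H1299 replicates.

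With 3 libraries a group, most 1.5-fold changes were not detected in simulation over genes of all levels, which does not describe the NRF2 genes alone. Whether libraries 1-1 and 1-2 are separate cultures is not stated, the introduced and native SIRT6 cannot be told apart, and RNA gives no measure of NRF2 protein.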
